A study of Mus musculus with 8 samples.

Results

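The 61 genes described here carry symbols that begin with Slc1a, Slc3a, Slc6a, Slc7a, Slc36a, Slc38a or Slc43a, the solute carrier families that hold most amino acid transporters of mammalian cells, with Slc7a2 and Slc7a11 left out. They are 61 of the 18193 genes measured. Of these members, 58 encode transporters or their partner subunits, and 3 (Slc36a1os, Slc6a19os and Slc7a6os) are opposite-strand genes that share only the name. A gene was read through the probe set with its highest mean over the 8 arrays, among probe sets with a single symbol. The family names are wider than the label: Slc6a4 and Slc6a2 carry serotonin and noradrenaline, Slc6a8 carries creatine, Slc6a6 carries taurine, and Slc43a3 is known as a purine nucleobase transporter.

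RNA came from mouse macrophages grown from bone marrow with macrophage colony-stimulating factor and kept as adherent cells, and was hybridised to Affymetrix arrays. The 4 groups of 2 arrays each were Tpl2 wild type unstimulated, Tpl2 wild type with Escherichia coli lipopolysaccharide (LPS, serotype 0111:B4) at 1 μg/mL, Tpl2 deficient unstimulated, and Tpl2 deficient with the same LPS dose. LPS is a bacterial cell-wall component that signals through toll-like receptor 4, and Tpl2, the product of Map3k8, is the kinase that passes that signal to MEK and ERK. The labels call the arrays biological replicates without naming animals, so the p-values speak for the spread among these 8 arrays, which may be technical. Strain, age, sex, LPS time and the design of the deletion were not given in the sources used here.

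As background, Slc3a2 (CD98) is a heavy chain that carries light chains of the Slc7 family to the plasma membrane, where they exchange leucine, glutamine, arginine and other amino acids. Most Slc36 and Slc38 proteins move amino acids with protons or sodium, some of them across the lysosomal membrane, and lysosomal Slc38a9 reports arginine to the Rag GTPases that recruit mTORC1. Macrophages exposed to LPS change their use of arginine, tryptophan and glutamine, and amino acid shortage acts on transporter genes through the transcription factor ATF4.

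The cells read as macrophages: 8 of 8 macrophage markers lay above the array medians in every group, with a mean log2 level of 13.0 to 13.2, and 0 of 3 erythroid markers did. Above the medians in some or all groups lay 3 of 5 stromal markers (Col1a1, Col1a2 and Dcn), 2 of 4 dendritic, 1 to 2 of 4 T and NK, 1 of 4 B and 0 to 1 of 4 mast cell markers. Unstimulated Tpl2-deficient replicate 1 stood apart on stromal genes, with a list mean of 7.03 against 6.20 in replicate 2. Leaving it out leaves 1 array in its group, so its part in the genotype comparison could not be tested. Of 6 neutrophil markers 2 (S100a8 and Camp) lay above the medians, and the mean level of the list was 6.40 to 6.44 in unstimulated and 6.99 to 7.07 in LPS-treated wild-type arrays, against 6.39 to 6.51 and 6.80 to 6.89 in Tpl2-deficient arrays; its part in the LPS results was not tested. Map3k8 read 9.27 and 9.28 in wild type and 8.32 and 8.23 in Tpl2-deficient unstimulated cells, and 11.01 and 10.91 against 9.83 and 10.09 with LPS, 2.00-fold lower in both states; where its probe set lies relative to the deletion was not given in the sources used here. The median spread of a gene between the 2 arrays of a group (SD) was 0.0649 to 0.0662 in 3 groups and 0.129 in LPS-treated Tpl2-deficient cells. The 3' to 5' log2 ratio of the Actb control probes, which tracks RNA integrity, was 0.74 and 0.88 in unstimulated wild-type and Tpl2-deficient cells and 0.51 and 0.65 with LPS. It was lower with LPS and higher in Tpl2-deficient cells in both states, so it moved with treatment and with genotype. Its part was not tested. In such bulk samples a lower signal from fewer cells of a type and from less RNA per cell cannot be told apart.

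All levels below are deposited log2 values, in which 1 unit is a doubling, and the array medians lay between 6.48 and 6.53. Every group mean lay above its arrays' medians for 33 members, every one lay under for 21, and 7 fell on both sides. The 21 dim members were Slc3a1, Slc7a9, Slc7a12, Slc7a13, Slc7a14, Slc7a15, Slc1a6, Slc38a4, Slc38a5, Slc6a3, Slc6a5, Slc6a11, Slc6a14, Slc6a15, Slc6a16, Slc6a18, Slc6a19, Slc6a19os, Slc6a20a, Slc6a20b and Slc6a21. Many of these are known from gut, kidney or brain, and a difference called in them is not read here as expression. A change from or to a group mean under the medians is a lower bound. Levels of different genes are not ranked, since each rests on its own probes.

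**Figure D1:**
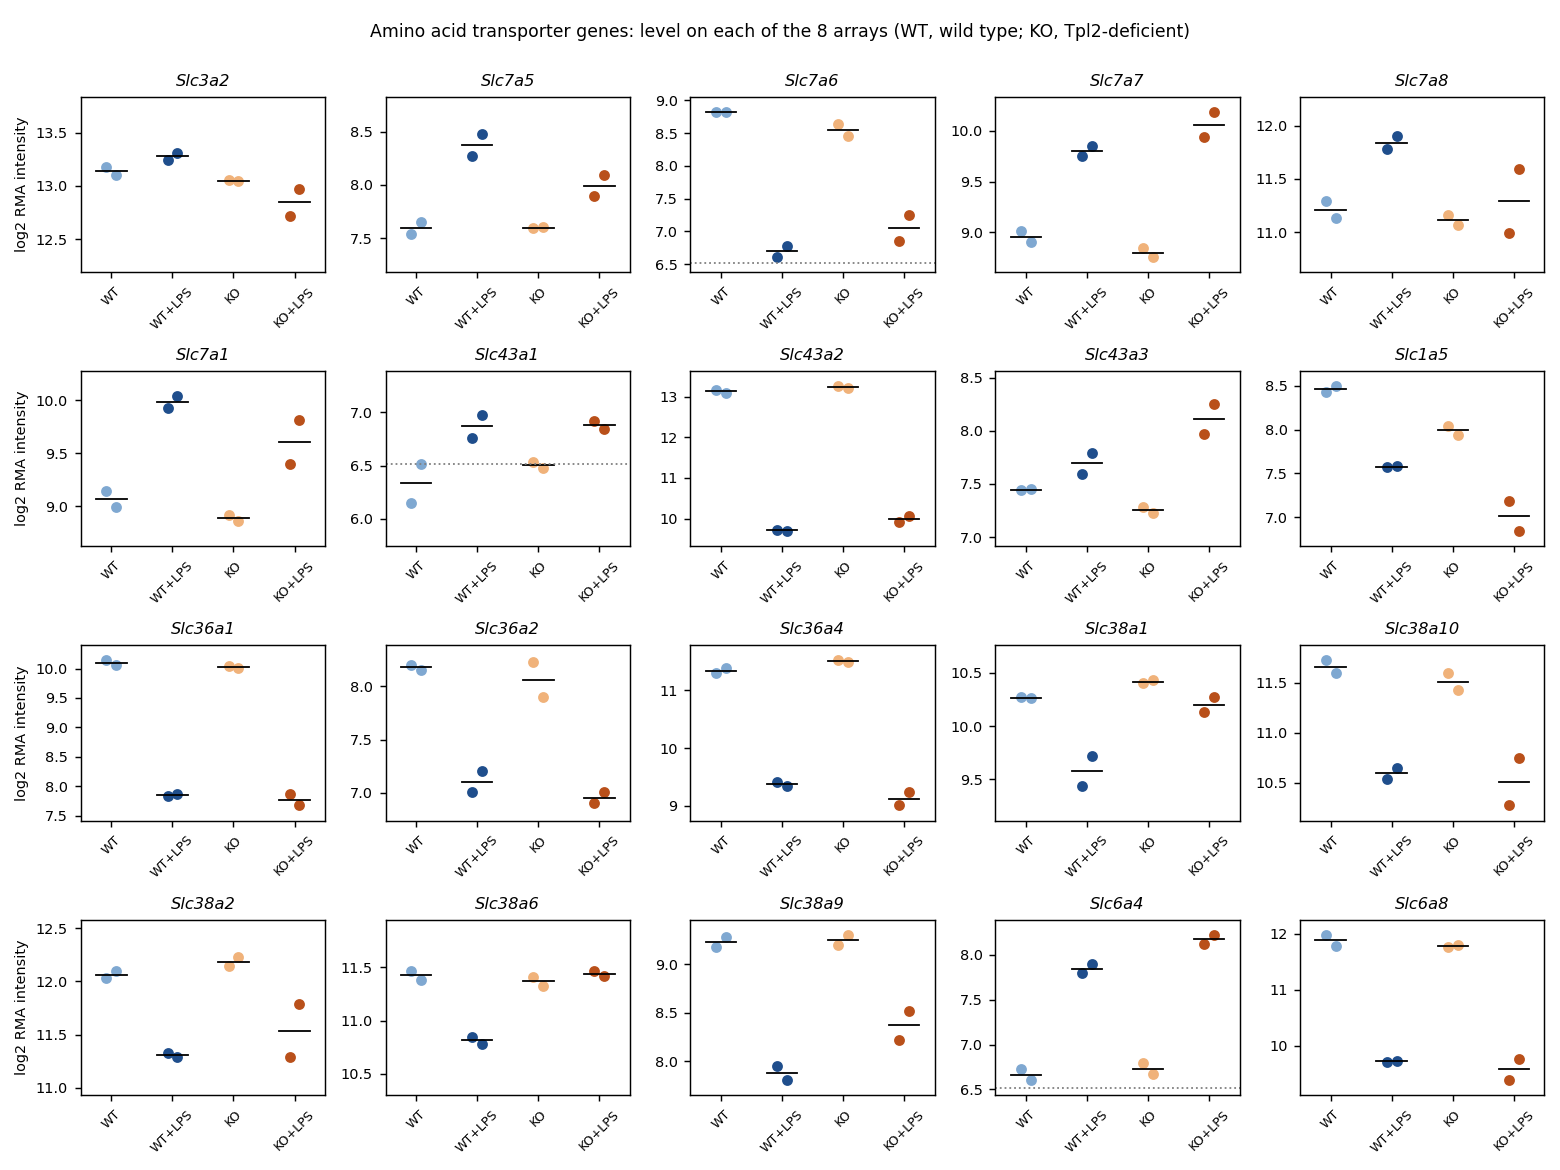
Deposited log2 level (vertical axis) of 20 transporter genes on each of the 8 arrays, 1 point per array, by genotype and treatment, with a line at each group mean and a dotted line at the array median where it is in range. The LPS-treated arrays of Slc43a2, Slc36a1, Slc36a4, Slc6a8 and Slc7a6 lie below every unstimulated array in both genotypes, and those of Slc7a1, Slc7a7 and Slc6a4 lie above.

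The first comparison asked how LPS changed these genes in wild-type cells. LPS lowered the neutral amino acid transporter Slc43a2 10.7-fold, the Slc36 transporters Slc36a1 and Slc36a4 4.76-fold and 3.90-fold, the creatine transporter Slc6a8 4.47-fold and the light chain Slc7a6 4.37-fold. Smaller rises were called for the arginine importer Slc7a1 and the light chains Slc7a5, Slc7a7 and Slc7a8. Over all members 15 rose and 15 fell at a Benjamini-Hochberg adjusted p under 0.05 (limma, adjusted over all genes), and 31 did not pass. That is 49.2% of members, beside 52.2% of all genes (21.3% higher and 30.9% lower), so the share called is near the background. At a change of at least 2-fold, 1 member rose and 8 fell, beside 5.46% and 11.6% of all genes. For 6 of the 15 rises both group means lay under the medians, and no fall involved a group mean under them. The median change was 0.13 for members and 0.04 for all genes. Among genes whose mean over the 8 arrays lay above the median gene, both medians were negative, at -0.57 for the 26 members and -0.32 for the 9096 genes. Of these 26 members 7 were called higher and 15 lower, beside 76.3% of the 9096 genes called in either direction.

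In Tpl2-deficient cells LPS raised 10 members and lowered 13, and 38 did not pass. The 37.7% of members called stand beside 41.8% of all genes (16.0% higher and 25.8% lower), and 2 rises and 6 falls reached 2-fold, beside 5.94% and 8.52%. Of the rises 2, Slc6a20a and Slc6a21, lay under the medians in both groups. The median change was 0.10 for members and 0.00 for all genes, and among genes above the median gene -0.32 for members and -0.20 for all. Of those members 6 were called higher and 13 lower, beside 69.9% of all genes above the median gene called in either direction. Fewer rises were called without unstimulated replicate 1 or 2, fits that leave 1 array in that group and have less power. The rises that lost their call were at 0.25 to 0.41 without replicate 1 and 0.28 to 0.40 without replicate 2. Both genotypes called 21 members in the same direction and 0 in opposite directions, 9 were called in wild type alone and 2 (Slc43a3 and Slc6a9) in Tpl2-deficient cells alone. Over all genes 34.6% were called in both in the same direction, 0.665% in opposite directions, 17.0% in wild type alone and 6.49% in Tpl2-deficient cells alone; whether the responses differ is tested below by the interaction. Scaling bore on the split of directions: with arrays centred on the hybridisation spike-ins the calls were 10 higher and 16 lower in wild type and 5 higher and 19 lower in Tpl2-deficient cells. That scaling moved the median of all genes from 0.04 to -0.09 in wild type and from 0.00 to -0.20 in Tpl2-deficient cells. It ended the called rises of Slc1a1, Slc6a2, Slc6a21, Slc7a10 and Slc7a15 in wild type (0.16 to 0.39) and of Slc43a1, Slc6a9, Slc6a12, Slc6a21 and Slc7a5 in Tpl2-deficient cells (0.06 to 0.32).

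**Figure D2:**
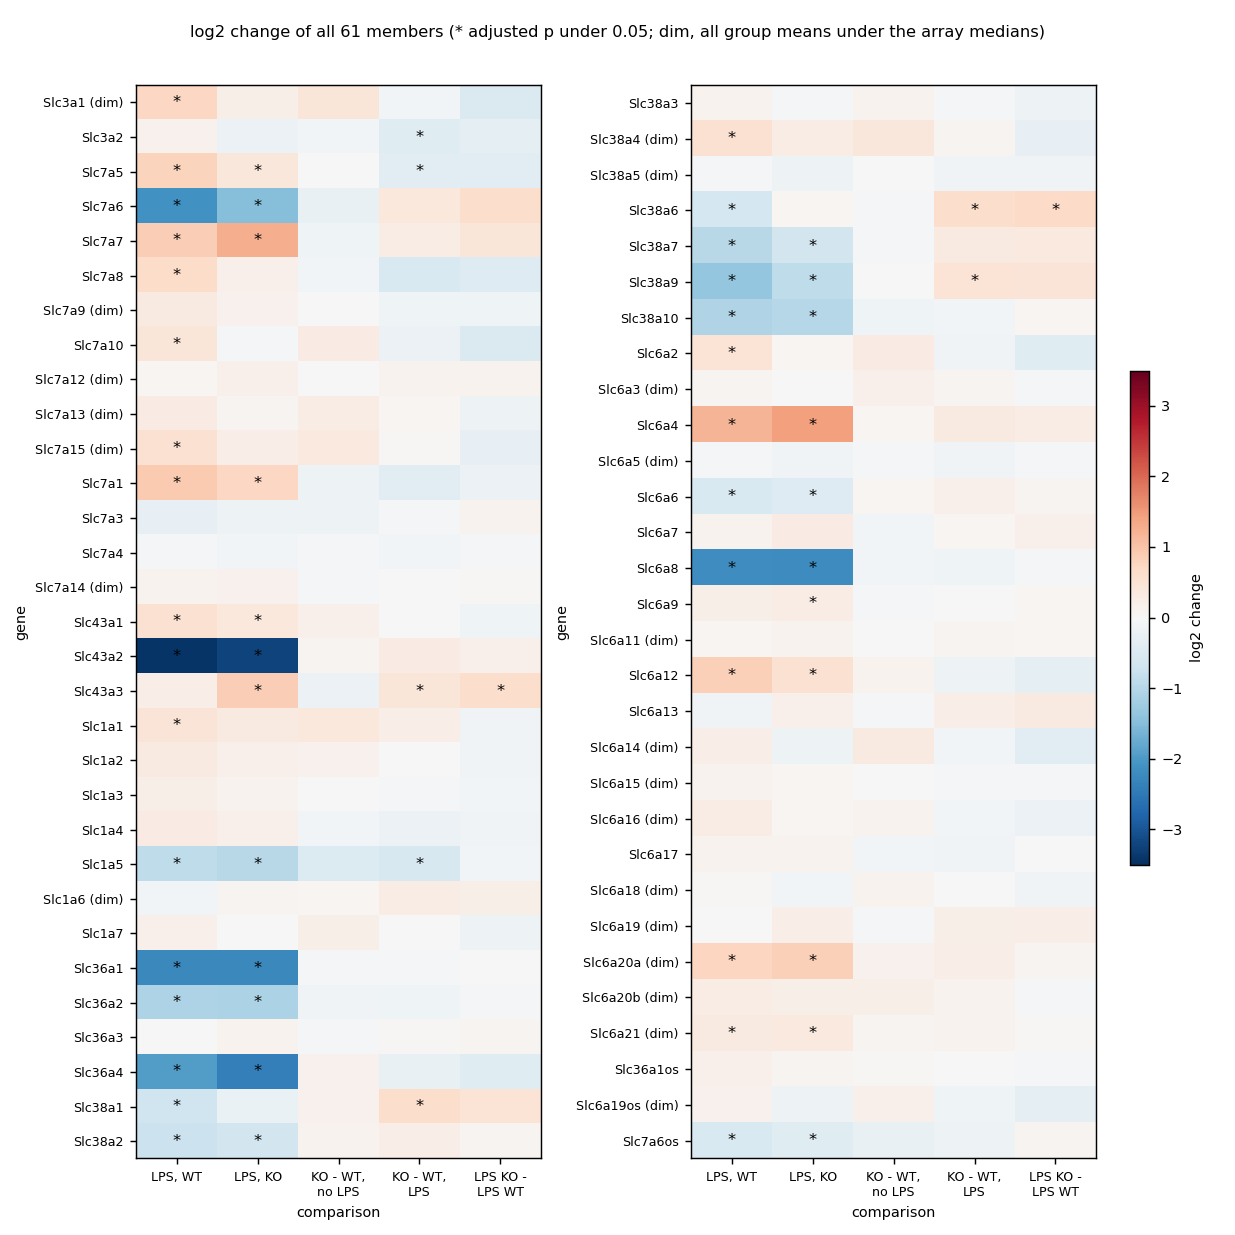
Log2 change (colour scale) of all 61 members, grouped by role, in the LPS comparisons of both genotypes, the genotype comparisons in each state, and the interaction of genotype and LPS; an asterisk marks an adjusted p under 0.05. In wild type 3 of 4 Slc36 rows and 6 of 9 Slc38 rows are called lower with LPS, beside 30.9% of all genes. These falls all lie in genes with every group mean above the medians, where 4861 of 10617 genes are called lower. The 6 include Slc38a1 and Slc38a6, whose other probe sets did not fall. The unstimulated genotype column holds no asterisk.

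The Slc43 family held the deepest fall. Slc43a2, a sodium-independent carrier of branched-chain amino acids and phenylalanine, read 13.17 and 13.09 in unstimulated wild-type cells and 9.73 and 9.69 after LPS, and 13.25 and 13.22 against 9.90 and 10.07 in Tpl2-deficient cells. The LPS arrays lay more than 3 log2 units under the unstimulated ones in both genotypes, with no overlap. The fall was -3.42 ± 0.10 (log2 change ± SE, n = 2 arrays per group, adjusted p = 4.46e-10) in wild type and -3.25 ± 0.10 (adjusted p = 6.77e-10) in Tpl2-deficient cells, and the other 2 probe sets of the gene fell as well, with changes of -2.52 and -0.58 in wild type. Its relative Slc43a1, a transporter of the same substrates, read 6.15 and 6.52 in unstimulated wild-type cells and 6.76 and 6.98 after LPS, and 6.53 and 6.47 against 6.92 and 6.85 in Tpl2-deficient cells. The LPS arrays were higher in both genotypes and did not overlap the unstimulated ones, with rises of 0.54 and 0.38. The unstimulated group means lay under the medians, but these rises were not stable enough to be read as lower bounds. The call was lost in wild type without LPS-treated replicate 2 (0.43, adjusted p = 0.058) or unstimulated replicate 1 (0.35, adjusted p = 0.0658), and in Tpl2-deficient cells without any 1 of their 4 arrays (0.35 to 0.41) or with spike-in centring (0.18, adjusted p = 0.333). Slc43a3 rose with LPS in Tpl2-deficient cells, by 0.86 ± 0.12, and its wild-type change of 0.25 ± 0.12 did not pass (adjusted p = 0.108).

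Of the 4 Slc36 genes, most of which encode proton-coupled carriers of small neutral amino acids, 3 fell at least 2-fold in both genotypes, and Slc36a3 did not pass in either. Falls of at least 2-fold were called for 11.6% of all genes in wild type and 8.52% in Tpl2-deficient cells. Slc36a1 (PAT1), found on lysosomes and known to act on mTORC1, read 10.14 and 10.07 in unstimulated wild-type cells and 7.83 and 7.88 after LPS, and 10.04 and 10.02 against 7.87 and 7.67 in Tpl2-deficient cells. The genotypes differed by -0.08 ± 0.10 in either state, which did not pass, and treated and untreated arrays did not overlap. The fall was -2.25 ± 0.10 in each genotype (adjusted p = 1.33e-08 in wild type and 1.26e-08 in Tpl2-deficient cells), and the difference between the responses was -0.00 with a 95% interval from -0.33 to 0.32. Slc36a4 (PAT4), a high-affinity tryptophan and proline transporter, read 11.30 and 11.38 in unstimulated wild-type cells and 9.41 and 9.35 after LPS, and 11.52 and 11.49 against 9.01 and 9.24 in Tpl2-deficient cells. Its changes were -1.96 and -2.38 (adjusted p = 4.86e-08 and 1.08e-08), and the difference of -0.42 ± 0.15 did not pass (adjusted p = 0.125). Slc36a2, a glycine and proline transporter of kidney, read 8.20 and 8.15 in unstimulated wild-type cells and 7.00 and 7.20 after LPS, and 8.23 and 7.90 against 6.90 and 7.01 in Tpl2-deficient cells, and fell by 1.07 and 1.11. It lies beside Slc36a1os and Slc36a1 in the RefSeq gene order.

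Promoter sequences are shown for the most deeply lowered member, for a lysosomal member that fell and for a light chain that rose, from the RefSeq promoter table of GRCm38.p6. For Slc36a1 and Slc7a7 the window was picked for holding a motif named below, so the motif's presence there is not a finding. A window runs from 250 bases before to 50 bases after a gene's start, and 66 windows covered 45 members. Letters were searched on both strands for TCACGTGA, the core of the CLEAR element bound by TFEB and TFE3, for TTGCATCA, the core of the amino acid response element bound by ATF4, and for the E-box CACGTG, which lies within the CLEAR core. Capitals mark the CLEAR core in Slc36a1 (chr11:55204090-55204389, plus strand), the amino acid response core in Slc7a7 (chr14:54417895-54418194, minus strand, matched in reverse complement), and nothing in Slc43a2 (chr11:75531444-75531743, plus strand), where none of the 3 motifs was found.
Slc36a1: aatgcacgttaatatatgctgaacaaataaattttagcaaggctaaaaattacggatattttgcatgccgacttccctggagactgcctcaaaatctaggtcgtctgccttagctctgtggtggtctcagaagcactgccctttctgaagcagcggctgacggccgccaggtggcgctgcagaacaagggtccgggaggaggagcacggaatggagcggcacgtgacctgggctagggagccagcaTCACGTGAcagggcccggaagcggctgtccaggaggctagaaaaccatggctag
Slc7a7: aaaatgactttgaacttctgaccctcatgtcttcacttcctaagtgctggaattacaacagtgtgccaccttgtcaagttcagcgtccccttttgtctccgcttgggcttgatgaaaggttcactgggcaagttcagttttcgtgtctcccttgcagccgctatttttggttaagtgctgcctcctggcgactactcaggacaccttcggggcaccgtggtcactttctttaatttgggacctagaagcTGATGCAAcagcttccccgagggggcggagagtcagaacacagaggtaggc
Slc43a2: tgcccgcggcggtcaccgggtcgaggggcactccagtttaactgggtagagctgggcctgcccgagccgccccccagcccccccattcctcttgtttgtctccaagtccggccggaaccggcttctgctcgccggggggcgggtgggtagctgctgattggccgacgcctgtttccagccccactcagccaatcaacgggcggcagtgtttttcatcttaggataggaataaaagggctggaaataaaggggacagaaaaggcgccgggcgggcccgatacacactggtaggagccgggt
The CLEAR core was held by 0.974% of the 32851 windows of all genes and, among members, by Slc36a1 alone, starting 4 bases before its start. The amino acid response core was held by 0.895% of all windows and by 2 members, Slc7a7 and Slc1a4, and in the Slc7a7 window shown it begins 1 base before the start. An E-box was held by 7.15% of all windows and by 9 members. These are matches of letters and not measured sites.

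Of the 9 Slc38 genes, which carry glutamine and other neutral amino acids, 6 were called lower in wild type on the probe set used and 1 dim member (Slc38a4) higher. The 6 include Slc38a1, whose other probe set was called higher, and Slc38a6, whose other set did not fall. In Tpl2-deficient cells 4 fell and 0 rose. Slc38a9, the lysosomal arginine sensor, read 9.18 and 9.28 in unstimulated wild-type cells and 7.95 and 7.81 after LPS, and 9.20 and 9.31 against 8.22 and 8.52 in Tpl2-deficient cells. The LPS arrays were lower in both genotypes without overlap, and the Tpl2-deficient ones stayed above the wild-type ones. It fell by 1.35 ± 0.12 (adjusted p = 2.56e-06) in wild type and by 0.88 ± 0.12 (adjusted p = 9.49e-05) in Tpl2-deficient cells, and of its 6 other probe sets 5 fell in wild type. Slc38a10, whose protein is less well known, read 11.72 and 11.59 in unstimulated wild-type cells and 10.53 and 10.65 after LPS, and 11.59 and 11.43 against 10.27 and 10.75 in Tpl2-deficient cells. Its falls of 1.07 and 1.00 were shared by 3 of 6 other probe sets. Slc38a7, a lysosomal glutamine and asparagine exporter, fell by 0.98 in wild type and 0.63 in Tpl2-deficient cells, where the call was lost without LPS-treated replicate 1 (-0.44, adjusted p = 0.0927).

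Slc38a2 (SNAT2), the glutamine carrier that amino acid shortage induces in many cells, read 12.03 and 12.10 in unstimulated wild-type cells and 11.33 and 11.29 after LPS, and 12.15 and 12.23 against 11.29 and 11.78 in Tpl2-deficient cells. LPS arrays lay below unstimulated ones in both genotypes, and the pair of LPS-treated Tpl2-deficient arrays stood apart from each other. The gene fell by 0.76 ± 0.14 (adjusted p = 0.000957) and 0.65 ± 0.14 (adjusted p = 0.00314) on the probe set used. Its 2 other sets had the same direction, and 1 was called in wild type and 0 in Tpl2-deficient cells. Slc38a1 (SNAT1), a carrier of similar substrates, gave opposite answers by probe set. The brighter set, which represents the gene here, read 10.27 and 10.26 in unstimulated wild-type cells and 9.44 and 9.72 after LPS, and 10.40 and 10.43 against 10.13 and 10.27 in Tpl2-deficient cells. It fell in wild type by 0.69 ± 0.12 (adjusted p = 0.000384) and changed by -0.22 ± 0.12 in Tpl2-deficient cells (adjusted p = 0.159). The other set was called higher in both genotypes, by 0.65 and 0.86, so no direction is given for the gene.

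**Figure D3:**
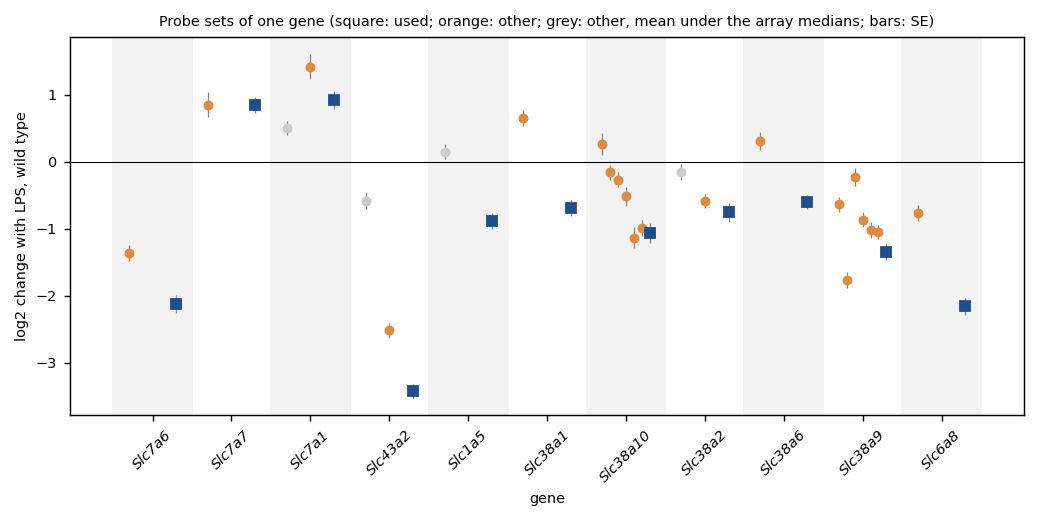
Log2 change with LPS in wild-type cells (vertical axis) of each probe set of 11 members with several probe sets, with standard errors as bars; squares are the sets used for the gene, orange circles the others and grey circles others whose mean lies under the array medians. The sets of Slc43a2 and Slc7a1 agree in direction, and the 2 sets of Slc38a1 lie on opposite sides of 0.

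Of the 2 heavy chains of heteromeric transporters, Slc3a1, dim in every group, was called higher with LPS in wild type by 0.72 and changed by 0.20 in Tpl2-deficient cells, which did not pass. Slc3a2, the heavy chain of the leucine exchangers, read 13.17 and 13.10 in unstimulated wild-type cells and 13.25 and 13.31 after LPS, and 13.06 and 13.04 against 12.72 and 12.97 in Tpl2-deficient cells. Its changes of 0.14 ± 0.11 and -0.20 ± 0.11 did not pass (adjusted p = 0.307 and 0.174). Of 9 light chains 5 rose and 1 fell in wild type, 66.7% beside 52.2% of all genes called. Among the rises were Slc7a15, which is dim, and Slc7a10, whose unstimulated mean lay under the medians. In Tpl2-deficient cells 2 rose and 1 fell, 33.3% beside 41.8% of all genes. The wild-type rises of Slc7a10 and Slc7a15 were lost without unstimulated replicate 2 (0.34 and 0.35), and that of Slc7a10 also without LPS-treated replicate 1 (0.28). Slc7a5 (LAT1), which brings in leucine in exchange for glutamine, read 7.53 and 7.65 in unstimulated wild-type cells and 8.27 and 8.48 after LPS, and 7.59 and 7.60 against 7.90 and 8.09 in Tpl2-deficient cells. LPS arrays were higher without overlap in both genotypes, and highest in wild type. The rise was 0.78 ± 0.11 (adjusted p = 0.000135) in wild type and 0.40 ± 0.11 (adjusted p = 0.0151) in Tpl2-deficient cells. The latter was lost without any 1 of LPS-treated replicate 2 (0.30, adjusted p = 0.0656), unstimulated replicate 1 (0.39, adjusted p = 0.0779) and unstimulated replicate 2 (0.40, adjusted p = 0.066), and with spike-in centring (0.19, adjusted p = 0.296).

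Slc7a7 and Slc7a6 (y+LAT1 and y+LAT2) are close relatives that exchange cationic for neutral amino acids, and they moved in opposite directions. Slc7a7 read 9.02 and 8.90 in unstimulated wild-type cells and 9.76 and 9.86 after LPS, and 8.84 and 8.76 against 9.94 and 10.19 in Tpl2-deficient cells. It rose by 0.85 ± 0.11 (adjusted p = 7.03e-05) in wild type and 1.26 ± 0.11 (adjusted p = 3.29e-06) in Tpl2-deficient cells, and its second probe set rose by 0.85 and 1.17. Slc7a6 read 8.82 and 8.82 in unstimulated wild-type cells and 6.61 and 6.78 after LPS, and 8.65 and 8.46 against 6.86 and 7.25 in Tpl2-deficient cells. LPS took it near the array medians in both genotypes. It fell 4.37-fold in wild type (adjusted p = 1.66e-07) and 2.83-fold in Tpl2-deficient cells (adjusted p = 3.33e-06), and the log2 difference of 0.63 ± 0.19 did not pass (adjusted p = 0.0707). Its neighbour Slc7a6os, on the opposite strand, fell by 0.53 and 0.43, and those calls were lost in wild type without LPS-treated replicate 2 (-0.38, adjusted p = 0.0669) and in Tpl2-deficient cells without any 1 of LPS-treated replicate 2 (-0.29), unstimulated replicate 1 (-0.38) and unstimulated replicate 2 (-0.47). Slc7a8 (LAT2), an exchanger of neutral amino acids, read 11.29 and 11.13 in unstimulated wild-type cells and 11.78 and 11.90 after LPS, and 11.16 and 11.07 against 11.00 and 11.59 in Tpl2-deficient cells. It rose by 0.63 ± 0.17 in wild type (adjusted p = 0.00757), and the call was lost without unstimulated replicate 2 (0.55, adjusted p = 0.0572) or LPS-treated replicate 2 (0.57, adjusted p = 0.0538). The 2 LPS-treated Tpl2-deficient arrays lay on either side of the unstimulated ones, a change of 0.18 ± 0.17 (adjusted p = 0.432).

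Of the 4 genes of the cationic branch, whose proteins need no heavy chain, Slc7a1 (CAT1) rose in both genotypes and Slc7a3, Slc7a4 and Slc7a14 did not pass in either. That is 25% in each genotype, beside 52.2% of all genes in wild type and 41.8% in Tpl2-deficient cells. Slc7a1, a widely expressed importer of arginine and lysine, read 9.14 and 8.99 in unstimulated wild-type cells and 9.93 and 10.04 after LPS, and 8.91 and 8.86 against 9.40 and 9.81 in Tpl2-deficient cells. Treated arrays were higher than untreated ones in both genotypes with no overlap. It rose by 0.92 ± 0.13 (adjusted p = 0.000144) and 0.72 ± 0.13 (adjusted p = 0.00105), and its 2 other probe sets rose in both genotypes.

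Of 7 Slc1 genes, which carry glutamate or neutral amino acids with sodium, 1 passed above the medians. Slc1a5 (ASCT2), a glutamine exchanger, read 8.43 and 8.49 in unstimulated wild-type cells and 7.57 and 7.58 after LPS, and 8.04 and 7.94 against 7.19 and 6.84 in Tpl2-deficient cells. The order was the same in each genotype, and the Tpl2-deficient arrays were the lower ones in each state. It fell with LPS by 0.89 ± 0.12 (adjusted p = 8.18e-05) and 0.98 ± 0.12 (adjusted p = 4.52e-05); its second probe set, under the medians, changed by 0.15 and -0.15 and did not pass. Slc1a1, a neuronal and epithelial glutamate carrier, was called higher in wild type by 0.44 with both group means under the medians, and the call was lost without any 1 of the 4 wild-type arrays (0.42 to 0.47).

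The Slc6 family, sodium- and chloride-coupled carriers of neurotransmitters and osmolytes, had 5 rises and 2 falls among 20 genes in each genotype. Of these, 2 rises (Slc6a20a and Slc6a21) lay under the medians. The 35% called in each genotype stand beside 52.2% of all genes in wild type and 41.8% in Tpl2-deficient cells. Slc6a8, the creatine importer, read 11.98 and 11.78 in unstimulated wild-type cells and 9.71 and 9.73 after LPS, and 11.77 and 11.80 against 9.40 and 9.77 in Tpl2-deficient cells. It fell by 2.16 ± 0.13 (adjusted p = 1.03e-07) and 2.21 ± 0.13 (adjusted p = 9.27e-08), and its second probe set fell by 0.77 and 0.92. Slc6a4, the serotonin transporter, read 6.72 and 6.61 in unstimulated wild-type cells and 7.79 and 7.90 after LPS, and 6.79 and 6.67 against 8.12 and 8.23 in Tpl2-deficient cells. It moved from just above the medians to clearly above them in both genotypes and was the largest rise among members, 1.18 ± 0.10 (adjusted p = 2.39e-06) and 1.44 ± 0.10 (adjusted p = 5.29e-07). Slc6a6, the taurine transporter, fell by 0.54 and 0.44, as did its other bright probe set (-0.77 and -0.32). Its other 2 sets were not called, and with the mean of all sets the Tpl2-deficient change was -0.18 and lost its call (adjusted p = 0.119). Slc6a12, a betaine and GABA transporter, rose by 0.83 and 0.52, and its Tpl2-deficient call was lost without LPS-treated replicate 2 (0.43, adjusted p = 0.0511) or unstimulated replicate 2 (0.38, adjusted p = 0.0895). Slc6a9, a glycine transporter, rose in Tpl2-deficient cells by 0.26 and Slc6a21 by 0.30 and 0.34. These calls were lost without most single arrays of the groups compared, at 0.25 to 0.28 for Slc6a9 and 0.23 to 0.36 for Slc6a21. The Slc6a9 call was lost in 12 of 20 alternative runs, also without any 1 wild-type array, where its value stayed at 0.26. Both genes lost their calls with spike-in centring, at 0.06 for Slc6a9 and 0.16 and 0.13 for Slc6a21. That centring also ended the Tpl2-deficient call of Slc6a12 (0.32, adjusted p = 0.109).

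In unstimulated cells 0 of 61 members differed between genotypes at the adjusted threshold, beside 0.500% of all genes (0.154% higher and 0.346% lower), and 7 had an unadjusted p under 0.05. The differences, Tpl2-deficient minus wild type, ran from -0.47 for Slc1a5 to 0.42 for the dim heavy chain Slc3a1. On the probe set used, Slc1a5 was lower on both Tpl2-deficient arrays (8.04 and 7.94 against 8.43 and 8.49). The difference was -0.47 ± 0.12 with a 95% interval from -0.74 to -0.20 (adjusted p = 0.149). With the mean of its 2 probe sets the difference was -0.08. With array weights, Slc1a5 and Slc3a1 passed. For Slc43a2 the interval was -0.12 to 0.33 and for Slc36a1 -0.30 to 0.15, so a 2-fold genotype difference lay outside both.

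With LPS, 7 members differed between genotypes, 11.5% beside 13.7% of all genes (8.01% higher and 5.73% lower), and 15 had an unadjusted p under 0.05. Slc38a6, Slc38a1, Slc38a9 and Slc43a3 were higher in Tpl2-deficient cells, and Slc1a5, Slc3a2 and Slc7a5 were lower. The largest of these differences was 1.54-fold. As background, Slc1a5 takes up glutamine, and the pair of Slc3a2 and Slc7a5 can exchange glutamine for leucine. Slc1a5 was lower by 1.48-fold on the probe set used (-0.56 ± 0.12, adjusted p = 0.00989). That set was also lower in unstimulated cells, and the other set did not share the direction with LPS. With the mean of its 2 probe sets the value was -0.28 and the call was lost (adjusted p = 0.0788). Slc3a2 was lower by 1.35-fold (-0.43 ± 0.11, adjusted p = 0.0237), with wild-type arrays at 13.25 and 13.31 above Tpl2-deficient ones at 12.72 and 12.97. Slc7a5 was lower by 1.30-fold (-0.38 ± 0.11, adjusted p = 0.0497), just inside the threshold, and the call was lost in 14 of 19 alternative runs. The pair of LPS-treated Tpl2-deficient arrays was the most widely spread group, and replicate 1 was the lower array for Slc3a2 and Slc7a5 while replicate 2 was the lower one for Slc1a5.

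Among the higher genes, Slc38a6, an orphan member of its family, read 10.85 and 10.78 in wild-type and 11.47 and 11.42 in Tpl2-deficient cells with LPS, 1.54-fold higher (0.63 ± 0.10, adjusted p = 0.00133). Its second, dimmer probe set gave 0.19 and did not pass. Slc38a9 was 1.40-fold higher (0.49 ± 0.12, adjusted p = 0.020), and 2 of its other probe sets were also called higher, at 0.72 and 0.48. Slc43a3 was 1.34-fold higher (0.42 ± 0.12, adjusted p = 0.0395). Slc38a1 was 1.54-fold higher on the set used (0.62 ± 0.12, adjusted p = 0.00408) and at 0.09 on the other. Slc7a8, with arrays at 11.78 and 11.90 against 11.00 and 11.59, was at -0.55 ± 0.17 and did not pass (adjusted p = 0.0521).

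Calls in this comparison depended on the arrays fitted. Leaving out 1 array leaves its group with 1 array and lowers power, so a call can be lost while the value stays. Fewer members were called without either LPS-treated wild-type array, and more without either LPS-treated Tpl2-deficient array. The calls were mostly higher without replicate 1 of the LPS-treated Tpl2-deficient group and mostly lower without its replicate 2. Slc38a6 kept its call in every alternative run. Slc38a1 lost it without LPS-treated wild-type replicate 1 (0.48). Slc1a5 lost it without LPS-treated wild-type replicate 1 or 2 (-0.57 and -0.56), at values close to the -0.56 of the main fit. Slc38a9 lost it without either of these (0.56 and 0.42) or Tpl2-deficient replicate 2 (0.34), and Slc3a2 without either of these (-0.46 and -0.40) or Tpl2-deficient replicate 1 (-0.30). Slc7a5 and Slc43a3 lost it without most single arrays, at -0.28 to -0.48 and 0.28 to 0.52. Without any 1 of the unstimulated arrays their values stayed at -0.38 and 0.42, and the calls were still lost. Over all 19 alternative runs Slc7a5 lost its call in 14, Slc43a3 in 10 and Slc3a2 in 6. Spike-in centring, array weights and the fit of only the 4 arrays compared each ended the calls of these genes.

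Whether the LPS response itself differed between genotypes was tested by the interaction, which called 2 members, 3.28% beside 8.59% of all genes (5.72% with a higher and 2.87% with a lower response in Tpl2-deficient cells); 12 had an unadjusted p under 0.05. Slc38a6 fell with LPS in wild type (11.47 and 11.38 to 10.85 and 10.78), a change of -0.61 ± 0.10, and in Tpl2-deficient cells its change of 0.07 ± 0.10 did not pass (11.41 and 11.33 to 11.47 and 11.42). With the mean of its 2 probe sets the wild-type change was -0.15 and did not pass (adjusted p = 0.199). On the set used the responses differed by 0.68 ± 0.14 (adjusted p = 0.0121), and with that mean by 0.35 (adjusted p = 0.15). That call was lost without unstimulated wild-type replicate 1 (0.64, adjusted p = 0.0628), unstimulated Tpl2-deficient replicate 2 (0.64, adjusted p = 0.0716) or LPS-treated wild-type replicate 2 (0.65, adjusted p = 0.0647), and the second probe set gave 0.02. Slc43a3 read 7.44 and 7.45 in unstimulated wild-type cells and 7.59 and 7.79 after LPS, and 7.28 and 7.22 against 7.97 and 8.25 in Tpl2-deficient cells. Its rise was larger in Tpl2-deficient cells by 0.61 ± 0.17 (adjusted p = 0.0483), just inside the threshold, and leaving out any 1 array other than LPS-treated Tpl2-deficient replicate 1 ended the call (0.47 to 0.71, adjusted p 0.0655 to 0.175). Without LPS-treated Tpl2-deficient replicate 1 the interaction called 5 members, all higher (Slc38a6, Slc38a9, Slc43a3, Slc7a6 and Slc7a7). Without replicate 2 of that group it called Slc38a6 higher and Slc36a4, Slc3a1, Slc3a2 and Slc7a8 lower. For Slc43a2 the difference was 0.17 with a 95% interval from -0.15 to 0.49, for Slc6a8 -0.04 with an interval from -0.45 to 0.36, and for Slc7a1 -0.20 with an interval from -0.62 to 0.22.

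**Figure D4:**
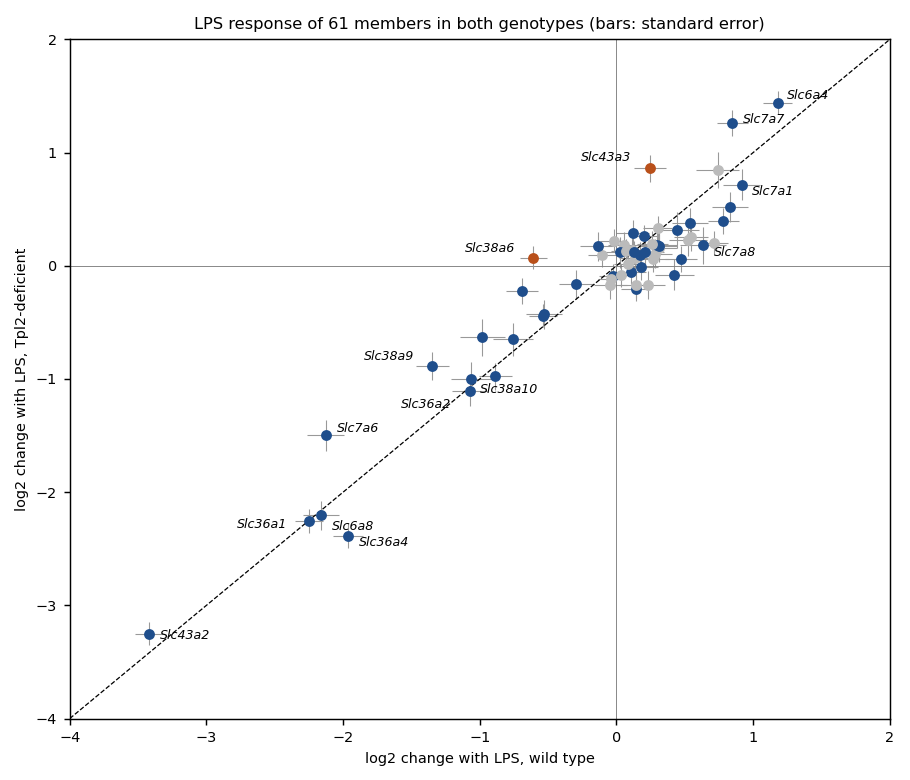
Log2 change with LPS in wild-type cells (horizontal axis) against that in Tpl2-deficient cells (vertical axis) for the 61 members, with standard errors as bars, orange where the 2 responses differ at an adjusted p under 0.05 and grey where every group mean lies under the array medians. Slc43a2 lies farthest down at -3.42 and -3.25 near the diagonal, and Slc38a6 and Slc43a3 lie above it.

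Other genes of the amino acid pathways are given from 3 lists. Among 38 genes of lysosomal amino acid sensing and mTORC1, LPS raised 3 and lowered 26 in wild type and raised 8 and lowered 21 in Tpl2-deficient cells, 76.3% in each beside 52.2% and 41.8% of all genes. The median changes were -0.58 and -0.44, beside 0.04 and 0.00 for all genes and -0.32 and -0.20 for genes above the median gene. Most genes of these lists are that bright, and in a fit of such genes alone 76.3% were called for LPS in wild type, 69.9% in Tpl2-deficient cells, 29.5% between LPS-treated genotypes and 21.6% for the interaction. The wild-type falls were led by Sesn1, a leucine-sensing sestrin (-5.29), and Rragd, a Rag GTPase (-3.95). Next came Castor2, a relative of the arginine sensor Castor1 (-2.88), and Flcn, which acts on the Rag GTPases (-2.75). The values of Rragd and Castor2 are lower bounds of the fall, since LPS took them under the medians. In Tpl2-deficient cells the values were -4.89 for Sesn1, -3.31 for Rragd, -2.76 for Flcn and -2.23 for Fnip2, the Flcn partner. The list had 0 calls between unstimulated genotypes (4 at an unadjusted p under 0.05), and with LPS 9 were higher and 4 lower than in wild type (34.2% beside 13.7% of all genes), among them Tfe3, a lysosomal transcription factor (-1.15), and Castor2 (at least 0.88). The interaction called 7 higher and 3 lower (26.3% beside 8.59%), including Tfe3 at -1.11 ± 0.13 (adjusted p = 0.000525).

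Among 26 genes of ATF4 and the amino acid response, LPS raised 13 and lowered 8 in wild type and raised 12 and lowered 8 in Tpl2-deficient cells, 80.8% and 76.9% beside 52.2% and 41.8% of all genes. The largest changes in wild type were those of the stress gene Nupr1 (3.94), the kinases Eif2ak2 (3.16) and Eif2ak3 (-2.74), and Psat1, an enzyme of serine synthesis (2.57). With LPS, Tpl2-deficient cells had 4 of them higher and 5 lower than wild type (34.6% beside 13.7% of all genes), led by Psat1 at -1.28 ± 0.15 (adjusted p = 0.000131) and Cebpb, a transcription factor (-0.82), and the interaction called 3 higher and 4 lower (26.9% beside 8.59%), with Ppp1r15a, a phosphatase subunit, at 1.00 ± 0.19 (adjusted p = 0.00781). Of 20 aminoacyl-tRNA synthetases, which load amino acids onto tRNA, 4 rose and 11 fell in wild type and 7 rose and 9 fell in Tpl2-deficient cells, 75.0% and 80.0% beside the same 52.2% and 41.8%. Wars, the tryptophan enzyme, rose by 1.23 and 1.83, whereas Sars, the serine enzyme, fell by 1.44 and 1.03 and Farsb, a phenylalanine enzyme subunit, by 1.13 and 1.23. With LPS, Rars was lower by 0.55 on the log2 scale and Wars higher by 0.51 in Tpl2-deficient cells, and the interaction called 0 synthetases, 5 of which had an unadjusted p under 0.05.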

How the data were processed

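Expression was measured on 8 Affymetrix arrays. The deposited values are log2 signals for 45101 probe sets, made by the authors with GCOS and RMA, per the submitters' processing notes, which give no versions; the chip definition and genome build are not given in the sources used here. No further normalization or filter on low values was applied, and array values carry no counting depth, so precision rests on the 2 arrays per group. Of the probe sets, 34945 list a single symbol and 932 list several, which were left out. All 61 members matched the RefSeq gene table (GRCm38.p6).

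A two-sided moderated test (limma 3.58.1, R 4.3.3; lmFit, eBayes) was run over all 18193 genes, with a mean for each group (4 residual and 6.87 prior degrees of freedom) and Benjamini-Hochberg adjustment over all genes within a comparison. The method was tested on simulated data. Tpl2-deficient and wild-type comparisons share arrays with the LPS comparisons.

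The members and lists were chosen with earlier results of these data known. Per-array values are given for members called and changed at least 2-fold in any comparison and for a fixed set of transporters; of the lists, up to 4 genes per comparison with the largest called changes could be named. Slc38a6, Slc43a3 and other members given with array values or statistics outside that rule were singled out after their values were seen. Alternatives covered probe sets, scaling, the variance model, the replicate number as a block, and the removal of single arrays. Replicate numbers did not pair the samples.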

Additional observations from a re-analysis of the deposited data

Results flagged for a closer look

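The LPS responses of 2 transporter genes differed between the genotypes by the test of the difference itself. For Slc38a6 the response on the probe set used was higher in Tpl2-deficient cells by 0.68 ± 0.14 on the log2 scale (SE, limma adjusted p = 0.0121). That set fell in wild type, and its change of 0.07 in Tpl2-deficient cells did not pass. A second probe set of the gene did not fall in wild type and gave a difference of 0.02. For Slc43a3 it was higher by 0.61 ± 0.17 (adjusted p = 0.0483). Groups of 2 arrays are too small for a test of single outlying arrays.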

How the results depend on the processing

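Of 165 results of a member in a comparison, 62 were called, and 36 of those kept their call in every alternative run. The counts of called members stayed within 1.5 times for LPS in both genotypes. The only alternative calls in a direction opposite to the main fit were those of Slc38a1 for LPS. Its wild-type call turned from a fall to a rise of 0.65 without _x_at and _s_at probe sets. In Tpl2-deficient cells, where its fall was not called, that run called a rise of 0.86. The mean of its probe sets gave a called rise of 0.32 there. Between unstimulated genotypes the count went from 0 to 2 with array weights. With LPS the 7 genotype calls became 4 with spike-in centring, 3 with array weights and 3 with only the 4 arrays compared. The 2 interaction calls became 0 with spike-in centring and 1 with array weights. The cause was not tested, save that fewer arrays were fitted in the comparison of 4. Leaving out 1 array gave 25 to 37 calls for LPS in wild type, 18 to 27 in Tpl2-deficient cells, 0 in each case between unstimulated genotypes, 1 to 11 between LPS-treated genotypes and 0 to 5 for the interaction.

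With the replicate number as a block the counts were 32, 22, 0, 7 and 2. The order is LPS in wild type, LPS in Tpl2-deficient cells, unstimulated genotypes, LPS-treated genotypes and the interaction. The deviations of same-numbered arrays correlated at -0.12 to 0.10, and a crossed pairing for LPS in Tpl2-deficient cells, chosen after seeing the data, gave 24 calls. Only 2 arrays per group and probe sets near the array medians limit what small changes can show.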
